A study of Mus musculus with 12 samples.

Results

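A set of 9 genes encodes the chemokine and chemoattractant receptors described here, which are Cx3cr1, Ccr1, Ccr2, Cxcr3, Cxcr4, C5ar1, C3ar1, Fpr1 and Fpr2. They were taken by symbol from a table of 14098 genes, in which 9 of 9 were found. RNA was sequenced from bone marrow-derived macrophages (BMDM), which were grown from marrow in L929 conditioned medium (a source of the growth factor CSF1) on low-attachment plastic and then embedded in a collagen-hyaluronic acid hydrogel. The marrow came from male and female C57Bl/6 mice aged 8 to 10 weeks, either WT or Camkk2-/- (labelled KO here), the latter lacking the calcium/calmodulin-dependent kinase kinase CaMKK2 in every cell of the animal. BMDM of each genotype were kept in the soft hydrogel, in the soft hydrogel with IL-4 (soft+IL-4) or in a hydrogel that was crosslinked with UV light and a photoinitiator 24 h after the cells were embedded (stiff). Cells were cultured for 48 h and released with collagenase, which all 6 groups share, and each group has 2 libraries, numbered 1 and 2, which the labels call biological replicates. By the methods of the study the soft hydrogels received neither light nor photoinitiator and were made with less collagen, so that stiffness, crosslinking treatment and collagen content cannot be told apart.

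Chemoattractant receptors are membrane proteins that couple mainly to inhibitory G proteins and steer leukocytes up a gradient of their ligand. The chemokine receptors in this group bind small secreted chemokines: CX3CR1 binds the membrane-tethered CX3CL1, CCR2 binds CCL2 and its relatives and brings monocytes out of the marrow, and CXCR4 binds CXCL12 and keeps cells in it. C5AR1 and C3AR1 bind the complement fragments C5a and C3a, while FPR1 and FPR2 bind formylated peptides that bacteria and damaged mitochondria release. These receptors let monocytes and macrophages find sites of infection and injury, and their abundance is known to shift as macrophages polarize.

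The 9 genes lie on 6 chromosomes of GRCm38 (mm10), by GENCODE vM21. Cx3cr1 (chr9:119901616-120069879, minus strand), Ccr1 (chr9:123962124-123968692, minus strand) and Ccr2 (chr9:124101950-124113557, plus strand) lie on chromosome 9, and the annotated starts of Ccr1 and Ccr2 are 133.26 kb apart. Fpr1 (chr17:17876471-17883940, minus strand) and Fpr2 (chr17:17887824-17893952, plus strand) are neighbours that point away from each other, with starts 3.88 kb apart. The others are single genes, Cxcr4 (chr1:128588199-128592293), C3ar1 (chr6:122847138-122856161), C5ar1 (chr7:16246743-16259540) and Cxcr3 (chrX:101731535-101734269), each on the minus strand. The annotation of Fpr3 overlaps Fpr2 on the same strand, and Fpr3 is not a row of the table, so that the value of Fpr2 may hold reads of both.

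To show the promoters of members that moved together and of a member that did not move with them, 3 RefSeq windows (GRCm38.p6) of the 250 bases before the annotated start are given here, 5′ to 3′ on the strand of the gene, with any match to a searched motif in capitals. Those of Fpr1 (chr17:17883940-17884189, minus strand) and Fpr2 (chr17:17887574-17887823, plus strand) belong to the divergent neighbours, and that of Ccr1 (chr9:123968693-123968942, minus strand) to the one gene of the 9 whose level was not lower with IL-4. The capitals in Fpr2 mark a STAT-type motif and those in Ccr1 a hypoxia response core read on the other strand. No match was found in the Fpr1 window.
Fpr1: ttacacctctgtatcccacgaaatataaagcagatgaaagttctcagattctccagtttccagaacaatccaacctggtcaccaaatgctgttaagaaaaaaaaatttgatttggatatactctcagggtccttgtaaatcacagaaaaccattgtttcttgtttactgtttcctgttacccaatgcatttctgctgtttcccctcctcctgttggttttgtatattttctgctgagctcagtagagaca
Fpr2: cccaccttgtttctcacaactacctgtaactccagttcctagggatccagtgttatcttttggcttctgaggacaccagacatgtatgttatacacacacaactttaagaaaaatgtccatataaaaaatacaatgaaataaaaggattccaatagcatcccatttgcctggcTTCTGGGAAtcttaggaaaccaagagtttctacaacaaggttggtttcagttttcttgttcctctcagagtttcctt
Ccr1: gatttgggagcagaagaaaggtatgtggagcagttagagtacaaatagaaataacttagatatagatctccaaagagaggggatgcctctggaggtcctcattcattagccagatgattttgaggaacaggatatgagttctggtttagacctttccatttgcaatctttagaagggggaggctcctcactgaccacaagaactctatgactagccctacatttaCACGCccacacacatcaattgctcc

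Motifs were searched on both strands in the 9 windows and in 32851 RefSeq windows of the same length. The STAT-type motif TTCNNNGAA was in 1 member (Fpr2, 77 bases before the start) and in 7.02% of all windows. The STAT6-type motif (with 1 more base in its middle, so that no match to it is a match to the STAT-type) was in 0 members and in 5.85% of windows. The AP-1 motif TGANTCA was in C3ar1 alone among the members (6.75% of windows), and the PU.1-type motif GAGGAAGT in Cxcr3 alone (2.44%). The hypoxia response core GCGTG, which is short and common, was in 3 members (Ccr1, Cxcr3 and Cxcr4) and in 28.2% of windows. The interferon response motif and the CRE TGACGTCA were in 0 members, against 2.98% and 1.55% of windows. A match is a description of these letters and says nothing of binding, and the absence of one holds for this window only.

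Values are TPM, a relative transcript abundance that accounts for gene length and sums to 1000000 in each library, so that levels of different genes can be compared. TPM keeps no read number, so the depth and the counting error of a value are unknown. The table was tested with limma on log2(TPM + 1) in 1 model of all 12 libraries, over the 11194 genes that reached 1 TPM in 2 or more libraries. The added 1 shrinks the log2 fold changes of genes with low TPM. A gene is called where the adjusted p (Benjamini-Hochberg over all genes tested) was under 0.05 and the log2 fold change at least 1 in either direction, and errors are SE of the model. All 9 members passed the filter, but only 5 (Ccr1, Ccr2, Cxcr4, C5ar1 and C3ar1) held at least 1 TPM in every library, and Cxcr3 and Fpr1 passed through the groups in which they were high. Groups of 2 are too small for an exact permutation test to reach a p under 0.05 for any gene.

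The libraries carry 3 features that touch the results. For Camkk2, the deleted gene, library 1 held 44.2 TPM and library 2 held 11.7 TPM under the WT soft label, and these values were 46.6 and 11.5 TPM under KO soft and 37.7 and 10.0 TPM under KO stiff. The other WT groups held 23.3 and 23.7 TPM (stiff) or 30.5 and 29.8 TPM (soft+IL-4), and the other KO group 11.5 and 8.54 TPM. Camkk2 therefore goes against the label of KO stiff 1, KO soft 1 and WT soft 2, libraries are named by their labels throughout, and every direction drawn from genotype rests on those labels. The 2 libraries labelled WT stiff differed from each other by a root mean square log2 difference of 0.691 over the genes tested, whereas WT stiff 2 differed from WT soft+IL-4 2 by only 0.188. The macrophage markers (8 of 8 in the table, led by Lyz2) summed to between 51475 and 57980 TPM in the 4 soft libraries, to 45977 and 48589 TPM in KO stiff, and to between 23571 and 25557 TPM in soft+IL-4 and WT stiff. Lyz2 made up most of each sum, at 45849 and 48456 TPM in WT soft and 20973 and 21251 TPM in WT soft+IL-4. With IL-4 in WT the other markers were lower too, except Cd68. It was at 1813 and 1990 TPM in WT soft and at 1824 and 2028 TPM in WT soft+IL-4. Markers of neutrophils (10 of 12 in the table, Ly6g not among them), which carry Fpr1, Fpr2 and C5ar1 in quantity, summed to between 124 and 219 TPM. The sum was highest in WT stiff 1. Most of each sum was Csf3r, at 75.7 to 122 TPM, and Mmp8, at 27.9 to 71.1 TPM, both highest in WT stiff 1. S100a9 was also highest there, at 9.71 TPM, but S100a8 was highest in KO stiff 2, at 19.9 TPM. Each of the other neutrophil markers was at or under 1.57 TPM in every library. Monocyte markers (6 of 6), which matter for Ccr2, summed to 19.1 and 23.8 TPM in WT soft and to no more than 10.3 TPM with IL-4 in WT and 15.0 TPM after stiffening. Under the KO label their sums were 8.64 and 22.8 TPM (soft), 5.45 and 7.82 TPM (IL-4) and 12.4 and 19.2 TPM (stiff). T or NK cell markers (5 of 9), which matter for Cxcr3, were at 1.71 to 2.58 TPM in the soft groups and KO stiff, at 0.431 to 0.935 TPM in the soft+IL-4 groups and at 0.811 to 0.929 TPM in WT stiff. Dendritic cell markers (7 of 7, Ccr7 among them) went the other way as a sum, at 4.95 to 11.1 TPM in the soft groups and KO stiff, 10.9 to 14.2 TPM in the soft+IL-4 groups and 13.7 to 21.8 TPM in WT stiff. Most of the sum in WT stiff was Ccr7, at 19.1 and 9.31 TPM, beside 2.24 and 3.04 TPM in WT soft. The other dendritic cell markers each stayed at or under 2.56 TPM in every library. The T or NK sums did not overlap between the libraries in which the receptors were low and the others. This separation came from Cd4, at 1.11 to 2.09 TPM in the soft groups and KO stiff and at 0.190 to 0.431 TPM in the rest. Cd3d, Cd8a, Nkg7 and Klrb1c overlapped between the same libraries, and Cd3d and Nkg7 were listed at 0 in 7 and 11 libraries. The monocyte sums overlapped through KO soft and KO stiff and the dendritic sums through KO soft. The part of any of these markers in the receptor values was not tested. B cell markers (4 of 4) summed to at most 3.38 TPM, those of mast cells or basophils (5 of 5) to at most 1.68 TPM and those of eosinophils (3 of 4) to at most 9.05 TPM, and 0 of 5 erythroid markers were in the table. In bulk RNA, fewer cells of a type and less RNA of a gene in each cell cannot be told apart.

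The receptors spanned a wide range of levels. In WT soft, the mean of the 2 libraries was 367 TPM for C3ar1, 301 TPM for Cxcr4 and 292 TPM for C5ar1, and the ranges of neighbours in this order overlapped. Ccr2 followed at 80.2 TPM, Cx3cr1 at 26.6 TPM, Fpr2 at 16.8 TPM and Ccr1 at 9.25 TPM, each apart from the next. Cxcr3 at 4.81 TPM and Fpr1 at 4.28 TPM were the lowest and overlapped. The order was the same in KO soft and in KO stiff, where Fpr2 and Ccr1 also overlapped. In both soft+IL-4 groups the mean of Cx3cr1 stood below those of Ccr1 and Fpr2 (overlapping with Fpr2 in WT), and in WT stiff it stood below Ccr1. The 9 members together held 968 and 1235 TPM in WT soft 1 and 2, 934 and 1321 TPM in KO soft and 846 and 1065 TPM in KO stiff. They held between 474 and 549 TPM in the 4 soft+IL-4 libraries, and 732 and 477 TPM in WT stiff 1 and 2.

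**Figure D1:**
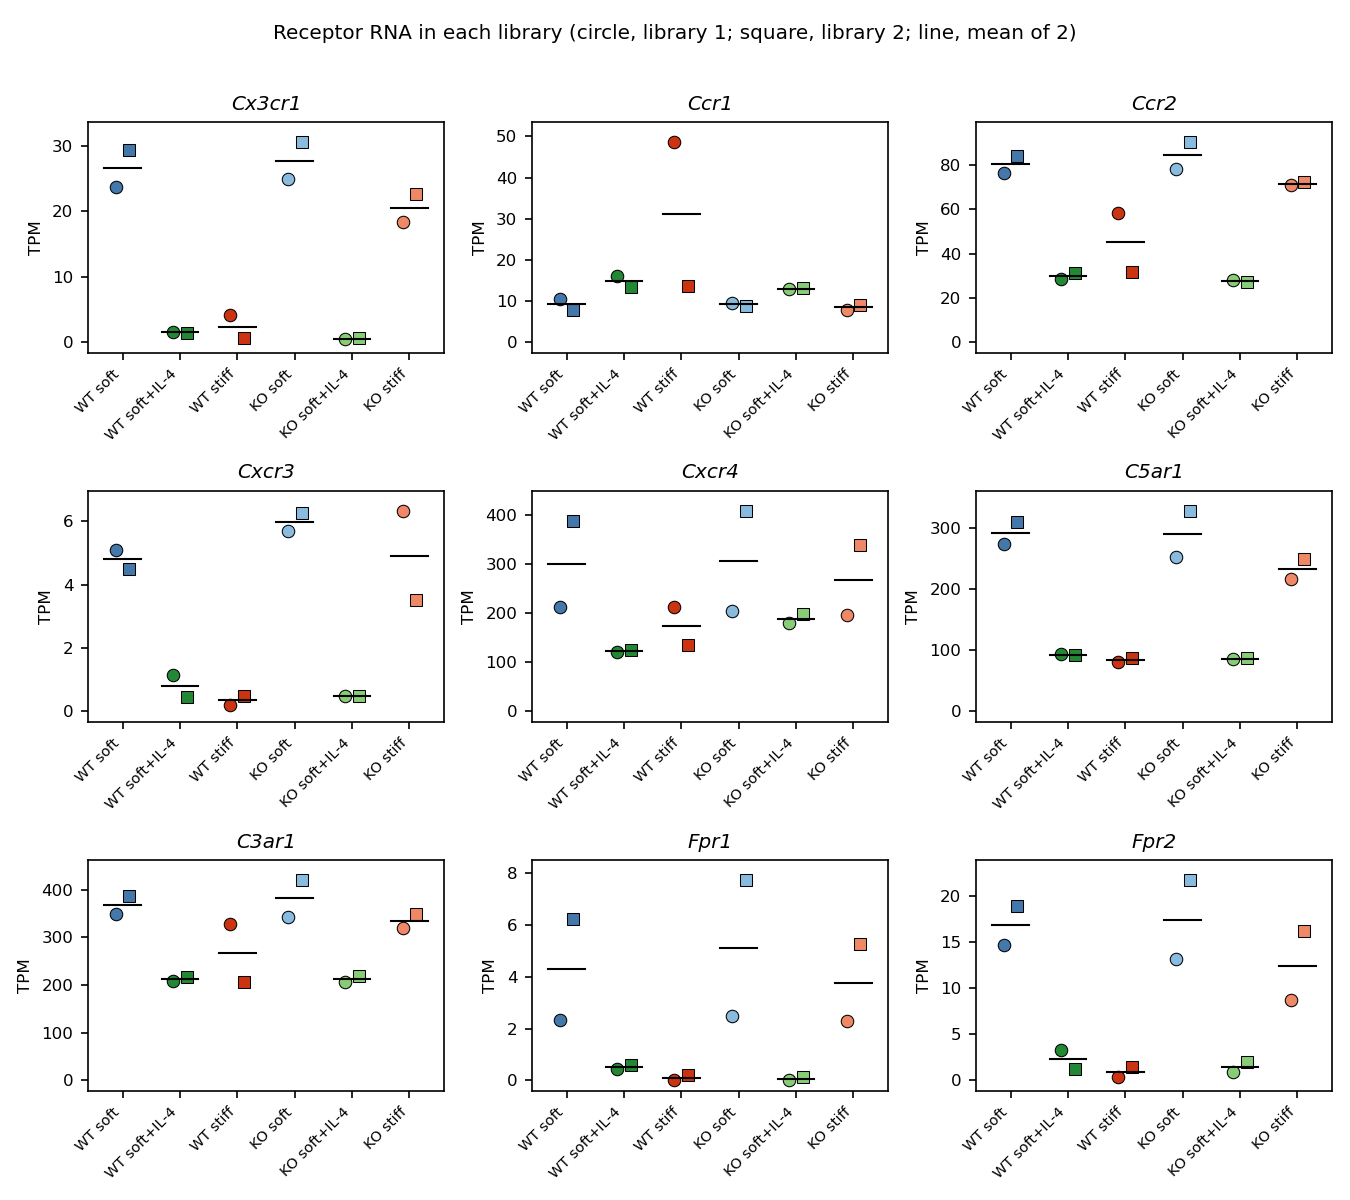
TPM (y axis, linear, a separate scale for each gene) of the 9 receptor genes in the 6 groups (x axis). Circles are library 1, squares library 2 and lines the mean of 2. Cx3cr1, Cxcr3, C5ar1, Fpr1 and Fpr2 are low in both soft+IL-4 groups and in WT stiff, and KO stiff lies near the soft groups. Ccr1 is highest in WT stiff 1, at 48.6 TPM.

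Among the chemokine receptors, Cx3cr1, the fractalkine receptor of resident macrophages and patrolling monocytes, had the largest difference with IL-4. It was at 23.8 and 29.4 TPM in WT soft and at 24.9 and 30.6 TPM in KO soft, and with IL-4 at 1.60 and 1.52 TPM in WT and at 0.474 and 0.644 TPM in KO. All 4 soft+IL-4 libraries lay far below all 4 soft libraries. In WT stiff Cx3cr1 was at 4.17 and 0.700 TPM, also below every soft library, whereas KO stiff held 18.4 and 22.7 TPM. It fell with IL-4 in WT (log2 change -3.42 ± 0.41, limma adjusted p = 0.00102) and in KO (-4.20 ± 0.41, adjusted p = 0.000287), and in WT stiff (-3.21 ± 0.41, adjusted p = 0.00132).

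Ccr2, the receptor of CCL2 that marks inflammatory monocytes, was at 76.3 and 84.0 TPM in WT soft and at 78.2 and 90.1 TPM in KO soft. With IL-4 it was at 28.7 and 31.2 TPM in WT and at 28.2 and 27.4 TPM in KO, with no overlap. The 2 WT stiff libraries disagreed, at 58.3 and 31.6 TPM, the second near the IL-4 values, and KO stiff was at 70.7 and 72.0 TPM. The log2 change with IL-4 was -1.39 ± 0.22 in WT (limma adjusted p = 0.00459) and -1.56 ± 0.22 in KO (adjusted p = 0.00244), both called. In WT stiff it was -0.88 ± 0.22 (adjusted p = 0.0353), under the fold required for a call.

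Cxcr3, the receptor of the interferon-induced chemokines CXCL9, CXCL10 and CXCL11, was at a low level throughout. It was at 5.11 and 4.51 TPM in WT soft, 5.71 and 6.28 TPM in KO soft and 6.33 and 3.52 TPM in KO stiff. It was at 1.14 and 0.473 TPM with IL-4 in WT, 0.493 and 0.488 TPM with IL-4 in KO and 0.216 and 0.495 TPM in WT stiff, so that the 6 high and the 6 low libraries did not overlap. Cxcr3 fell with IL-4 in WT (log2 change -1.71 ± 0.28, limma adjusted p = 0.00473) and in KO (-2.23 ± 0.28, adjusted p = 0.00119), and in WT stiff (-2.11 ± 0.28, adjusted p = 0.00153).

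Cxcr4, which binds CXCL12, was among the 3 most abundant members and varied most between libraries of 1 group among these 3. It was at 213 and 388 TPM in WT soft, 204 and 408 TPM in KO soft and 196 and 339 TPM in KO stiff. In these 3 groups, the library numbered 2, in which Camkk2 was low, held the higher value. Cxcr4 was at 121 and 124 TPM with IL-4 in WT, 179 and 198 TPM with IL-4 in KO and 212 and 135 TPM in WT stiff. It was called in no comparison. With IL-4 its log2 change was -1.22 ± 0.39 in WT (limma adjusted p = 0.0812) and -0.61 ± 0.39 in KO (adjusted p = 0.393).

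Ccr1, which binds CCL3, CCL5 and several other inflammatory chemokines, differed in sign from the other 8 with IL-4 and in WT stiff, each against soft. It was at 10.6 and 7.85 TPM in WT soft, 16.2 and 13.5 TPM with IL-4 in WT, 9.68 and 8.78 TPM in KO soft and 12.9 and 13.2 TPM in KO soft+IL-4. The soft+IL-4 libraries were all higher than the soft libraries, but neither log2 change was called, at 0.63 ± 0.44 in WT (limma adjusted p = 0.415) and 0.46 ± 0.44 in KO (adjusted p = 0.591). In WT stiff it was at 48.6 and 13.6 TPM, in KO stiff at 7.98 and 9.18 TPM. The mean log2 change in WT stiff was 1.41 ± 0.44 (adjusted p = 0.0754), which rests on WT stiff 1, since WT stiff 2 differed from the WT soft mean by 0.53 and WT stiff 1 by 2.29.

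The complement receptors were both among the 3 most abundant members in WT soft. C5ar1, the receptor of the anaphylatoxin C5a, was at 273 and 310 TPM in WT soft, 253 and 328 TPM in KO soft and 217 and 249 TPM in KO stiff. It was at 93.6 and 92.1 TPM with IL-4 in WT, 85.2 and 87.4 TPM with IL-4 in KO and 80.6 and 87.3 TPM in WT stiff, so that the low libraries lay close together and far from the rest. C5ar1 had the smallest error of the 9, and fell with IL-4 in WT (log2 change -1.64 ± 0.13, limma adjusted p = 0.000103) and in KO (-1.73 ± 0.13, adjusted p = 8.32e-05), and in WT stiff (-1.78 ± 0.13, adjusted p = 6.42e-05). It was the one member called in each of these comparisons also without the 3 libraries whose Camkk2 goes against the label and also with only the compared groups in the model.

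C3ar1, the receptor of C3a, was at 348 and 386 TPM in WT soft and 343 and 420 TPM in KO soft, and at 208 and 218 TPM with IL-4 in WT and 207 and 220 TPM with IL-4 in KO. The groups did not overlap, but the log2 changes of -0.78 ± 0.19 in WT (limma adjusted p = 0.0285) and -0.83 ± 0.19 in KO (adjusted p = 0.0229) were under the fold required for a call. WT stiff 1 and 2 were at 328 and 207 TPM, and KO stiff at 319 and 349 TPM. The WT stiff value of 328 TPM was thus near the soft libraries and that of 207 TPM at the soft+IL-4 level. C3ar1 was called in no comparison.

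The formyl peptide receptors were low in BMDM and lower still with IL-4. Fpr2, which also binds annexin A1 and serum amyloid A, was at 14.7 and 19.0 TPM in WT soft, 13.2 and 21.7 TPM in KO soft and 8.68 and 16.2 TPM in KO stiff. It was at 3.34 and 1.23 TPM with IL-4 in WT, 0.885 and 1.98 TPM with IL-4 in KO and 0.354 and 1.48 TPM in WT stiff, with no overlap with the first 3 groups. Fpr2 fell with IL-4 in WT (log2 change -2.50 ± 0.44, limma adjusted p = 0.00744) and in KO (-2.92 ± 0.44, adjusted p = 0.00346), and in WT stiff (-3.27 ± 0.44, adjusted p = 0.00188). The WT call with IL-4 was lost without WT soft 2 or WT soft+IL-4 2. Fpr1, the high-affinity receptor of bacterial formyl peptides, was at 2.33 and 6.23 TPM in WT soft, 2.47 and 7.72 TPM in KO soft and 2.29 and 5.26 TPM in KO stiff. It was at 0.434 and 0.602 TPM with IL-4 in WT, listed at 0 and at 0.138 TPM in KO soft+IL-4, and listed at 0 and at 0.230 TPM in WT stiff. Fpr1 was called lower with IL-4 in KO (log2 change -2.37 ± 0.50, limma adjusted p = 0.0165) and in WT stiff (-2.15 ± 0.50, adjusted p = 0.0253), while the IL-4 change in WT was -1.70 ± 0.50 (adjusted p = 0.0613) and was not called. Its KO call was lost without KO soft 2 or either KO soft+IL-4 library, and its WT stiff call without WT soft 2 or WT stiff 1.

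Counted over the members, 5 of 9 were called lower with IL-4 in WT (Cx3cr1, Ccr2, Cxcr3, C5ar1 and Fpr2) and 0 higher, where 2.17% of all genes tested were called lower. The median log2 change of the 9 was -1.64, beside -0.05 over all genes tested. In KO, 6 of 9 were called lower with IL-4 (the same 5 and Fpr1), where 2.09% of all genes were, and the median was -1.73 beside -0.05. With both genotype labels averaged, where the log2 change does not depend on how genotype was labelled within each hydrogel condition, the same 6 were called lower, against 2.48% of all genes. All 4 soft+IL-4 libraries lay below all 4 soft libraries in 8 of 9 members, which holds for 21.2% of genes tested, and above them in Ccr1, as in 15.7% of genes tested. In the averaged comparison Cxcr4 (-0.92 ± 0.28, limma adjusted p = 0.041) and C3ar1 (-0.81 ± 0.13, adjusted p = 0.00235) passed the adjusted p but not the fold. Without the 3 libraries whose Camkk2 goes against the label, the averaged comparison still called the same 6, the WT comparison called C5ar1 alone and the KO comparison 4 (Cx3cr1, Cxcr3, C5ar1 and Fpr1).

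**Figure D2:**
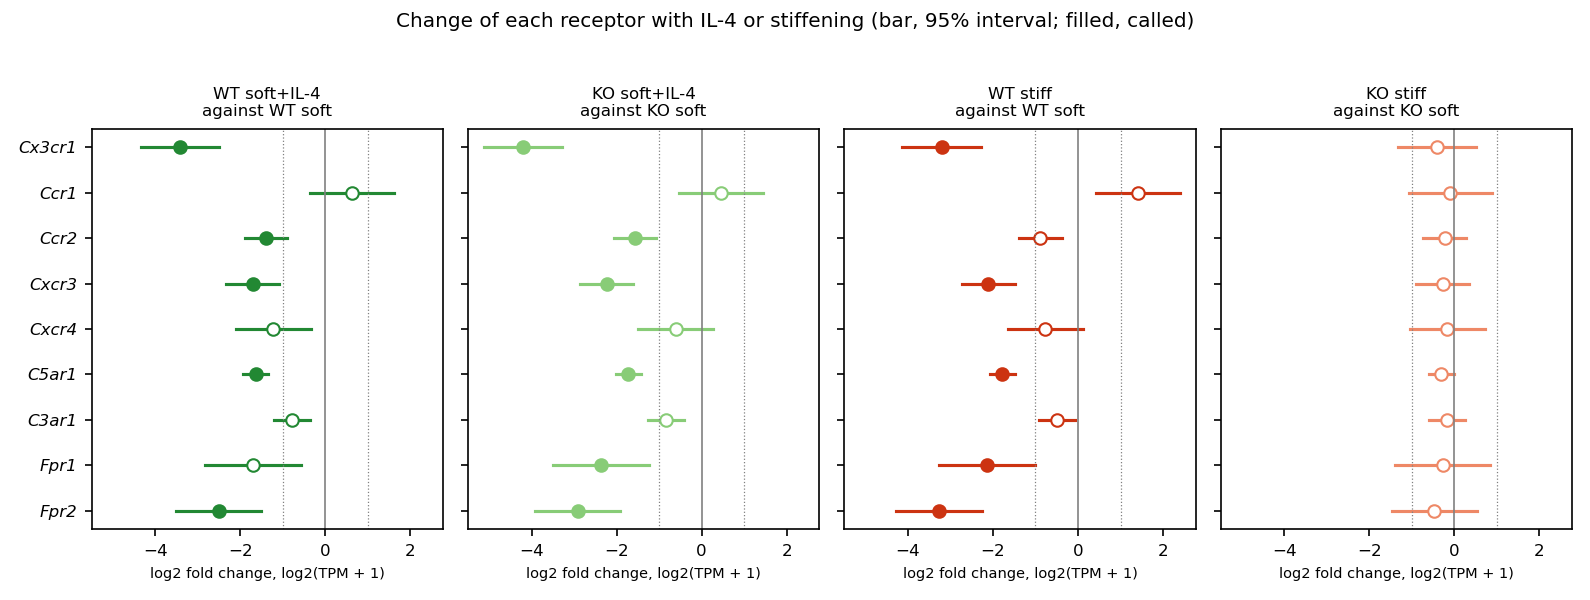
Log2 fold change on log2(TPM + 1) of each receptor (x axis) in soft+IL-4 or stiff against soft, for WT and KO labels, with 95% intervals of the limma model as bars. Filled points were called and dotted lines mark a log2 change of 1 in either direction. Filled points lie to the left in the first 3 panels (5, 6 and 5 members), and the fourth, KO stiff against KO soft, has 0.

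IL-4 left no detectable difference between the genotype labels in these genes. The interaction of genotype label and IL-4 called 0 of 9 members, with 0 of 9 at an unadjusted p under 0.05, and also 0 of all genes tested (1.47% at an unadjusted p under 0.05). With IL-4, KO and WT likewise differed in 0 of 9 by limma, and 0 of 9 had an unadjusted p under 0.05 (2.08% of all genes). The interval of the KO minus WT difference in soft+IL-4 was narrow for C5ar1, from -0.40 to 0.19 on the log2 scale, and wide for Cx3cr1, from -1.63 to 0.20. In the soft hydrogel, 0 of 9 were called between the labels by limma and 0 of 9 had an unadjusted p under 0.05 (1.16% of all genes), with log2 differences between -0.01 for C5ar1 and 0.27 for Cxcr3. The soft labels did not separate Camkk2 itself, at 44.2 and 11.7 TPM in WT soft and 46.6 and 11.5 TPM in KO soft. The soft comparison and the interaction, which uses the same libraries, therefore cannot show whether the deletion matters for these genes.

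Stiffening was the comparison in which the libraries of the 2 genotype labels parted. In WT stiff against WT soft, 5 of 9 members were called lower (Cx3cr1, Cxcr3, C5ar1, Fpr1 and Fpr2) and 0 higher, where 2.23% of all genes tested were called lower, and the median log2 change was -1.78 beside 0.02 over all genes tested. In KO stiff against KO soft, 0 of 9 were called, 1 of 9 (C5ar1) had an unadjusted p under 0.05 by limma, and of all genes 0.0447% were called and 2.64% had an unadjusted p under 0.05. All 9 log2 differences were nevertheless negative in KO stiff, as in 54.4% of genes tested, between -0.10 for Ccr1 and -0.48 for Fpr2. The KO stiff libraries lay below both KO soft libraries for 3 members (Cx3cr1, Ccr2 and C5ar1), where 18.7% of genes tested did so.

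The WT stiff result holds libraries that differ among themselves. For Cxcr3, C5ar1 and Fpr1, the 2 libraries differed from the WT soft mean by like amounts on the log2 scale, C5ar1 by -1.84 and -1.73, Cxcr3 by -2.25 and -1.96, and Fpr1 was close to 0 TPM in both. For Cx3cr1 and Fpr2 both were far below, but by -2.41 and -4.01 and by -3.71 and -2.83. For Ccr2, C3ar1 and Cxcr4, WT stiff 1 was near the soft mean, at -0.45, -0.16 and -0.44, and WT stiff 2 lay at -1.32, -0.82 and -1.09, close to the soft+IL-4 means of -1.39, -0.78 and -1.22. WT stiff 2 was nearer than WT stiff 1 to the soft+IL-4 mean in each of the 9 members. Without WT stiff 1, the WT stiff comparison called Cx3cr1, Ccr2, Cxcr3, C5ar1 and Fpr2, and without WT stiff 2 it called Ccr1 higher beside Cx3cr1, Cxcr3, C5ar1, Fpr1 and Fpr2 lower. With only WT soft and WT stiff in the model, or without the 3 libraries whose Camkk2 goes against the label, only C5ar1 was called.

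**Figure D3:**
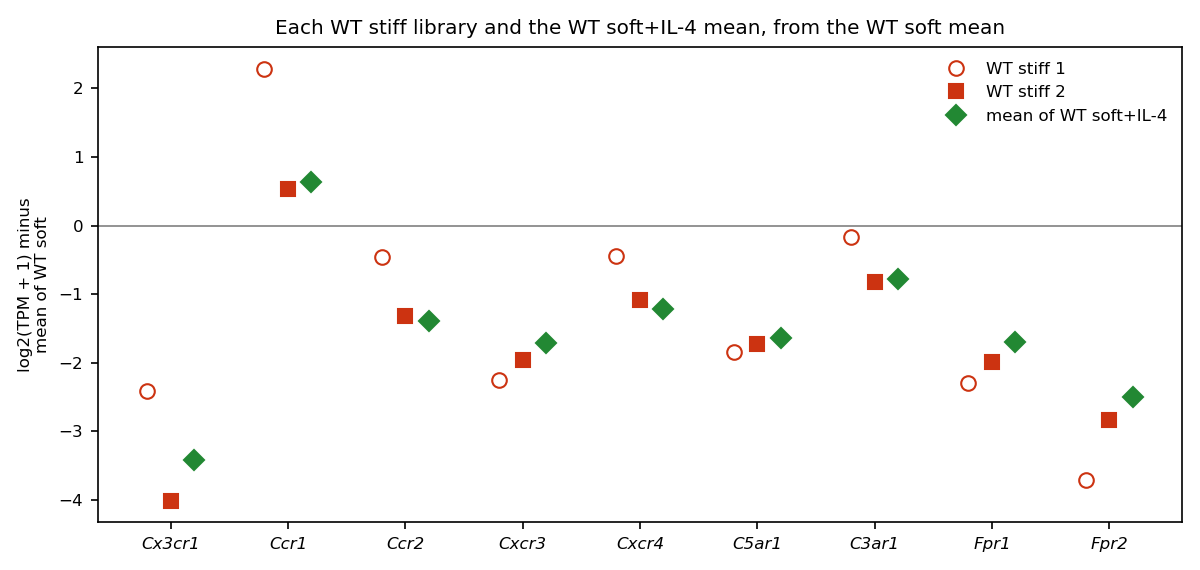
Difference from the mean of WT soft on log2(TPM + 1) (y axis) of WT stiff 1 (open circles), WT stiff 2 (filled squares) and the mean of WT soft+IL-4 (diamonds), for each receptor (x axis). The squares lie nearer to the diamonds than the circles do in all 9, and the circles lie apart from them in Ccr1 (2.29 against 0.63) and, nearer to 0, in Ccr2, Cxcr4 and C3ar1.

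Set directly against each other, WT stiff and WT soft+IL-4 differed in 0 of 9 members by limma, 1 of 9 (Ccr2) had an unadjusted p under 0.05, and 0 of all genes tested were called (4.98% at an unadjusted p under 0.05). A lack of calls does not show that the 2 treatments act alike, and the intervals of the difference reached 1.76 on the log2 scale for Ccr1. Without WT stiff 2, Cx3cr1 and Ccr1 were called in this comparison. In KO, the same comparison called 5 of 9 members higher in stiff than in soft+IL-4 (Cx3cr1, Ccr2, Cxcr3, C5ar1 and Fpr2), where 1.12% of all genes were called higher. The largest of these was Cx3cr1, at 3.79 ± 0.41 on the log2 scale (limma adjusted p = 0.00135). This count was 2 without either KO soft+IL-4 library (Cx3cr1 and C5ar1), 3 without KO stiff 2 and 1 without the 3 libraries whose Camkk2 goes against the label.

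Averaged over both genotype labels, stiff against soft called 4 of 9 members lower (Cx3cr1, Cxcr3, C5ar1 and Fpr2), where 0.599% of all genes were called lower. The averages join a WT group in which these genes were low and a KO group in which they were near the soft level. The stiff libraries lay below the soft libraries without overlap for Cx3cr1 and C5ar1 of the 4 and for Ccr2, which was not called. This holds for 4.54% of all genes. The C5ar1 call was lost without KO soft 2 or KO stiff 1. Without WT stiff 2, Fpr1 was also called lower and Ccr1 was called higher.

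Between the genotype labels in the stiff hydrogel, KO stiff was higher than WT stiff in 4 of 9 called members, where 1.37% of all genes tested were called higher. These were Cx3cr1 (2.86 ± 0.41 on the log2 scale, limma adjusted p = 0.00505), Fpr2 (2.82 ± 0.44, adjusted p = 0.00782), Cxcr3 (2.09 ± 0.28, adjusted p = 0.00302) and C5ar1 (1.46 ± 0.13, adjusted p = 0.00066). Fpr1 was at 2.03 ± 0.50 (adjusted p = 0.0519) and Ccr2 at 0.72 ± 0.22 (adjusted p = 0.115), neither called. Ccr1 was at -1.50 ± 0.44 (adjusted p = 0.093), with 48.6 TPM in WT stiff 1. The calls of Cx3cr1 and Fpr2 were lost without KO stiff 2. Without WT stiff 2, Fpr1 was also called higher in KO and Ccr1 was called lower in KO. Only C5ar1 kept its call without the 3 libraries whose Camkk2 goes against the label. With only the 2 stiff groups in the model, 0 members were called.

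**Figure D4:**
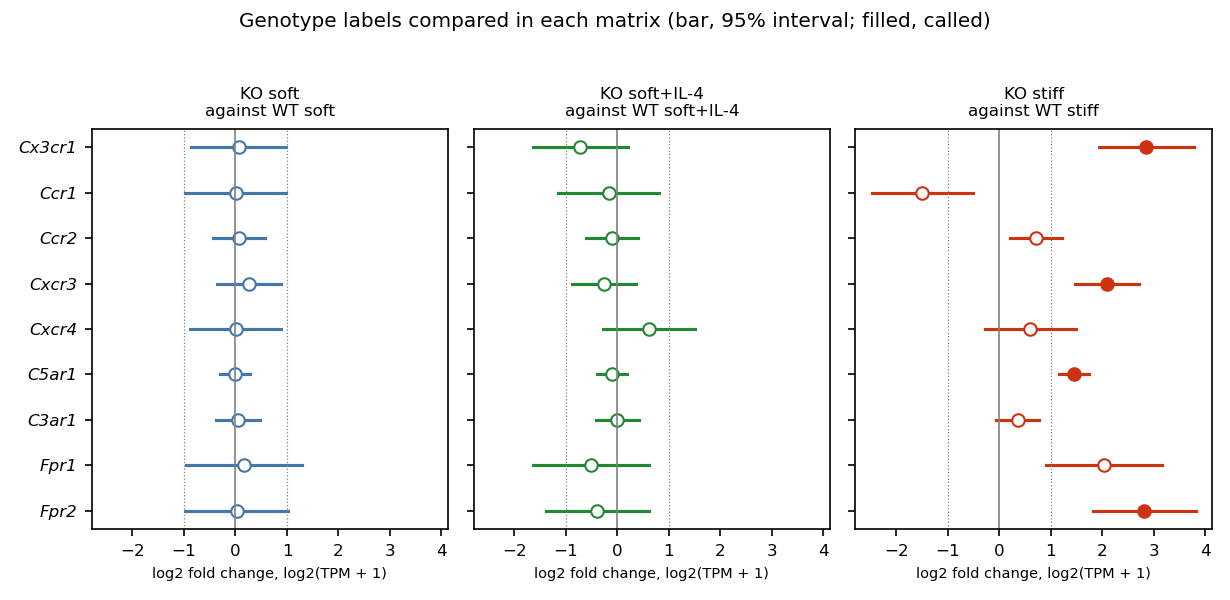
Log2 fold change on log2(TPM + 1) of KO against WT labels (x axis) for each receptor in the soft, soft+IL-4 and stiff hydrogels, with 95% intervals of the limma model as bars. Filled points were called. Values lie between -0.72 and 0.61 in the first 2 panels, and Cx3cr1, Cxcr3, C5ar1 and Fpr2 are filled in the stiff hydrogel.

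The difference between the genotype labels in their response to stiffening was tested as an interaction. C5ar1 was the one member called, with 0.518% of all genes called in the same direction. Its response to stiffening was 1.48 ± 0.18 higher on the log2 scale in KO than in WT (limma adjusted p = 0.0103). The interactions of Cx3cr1 (2.80 ± 0.58, adjusted p = 0.0663), Cxcr3 (1.83 ± 0.39, adjusted p = 0.078) and Fpr2 (2.79 ± 0.63, adjusted p = 0.0961) were larger or of like size but did not pass. The C5ar1 call was lost without WT soft 1, WT soft 2, KO soft 1 or KO stiff 2, with values from 1.29 to 1.56. Without WT stiff 2, Cx3cr1, Cxcr3 and Fpr2 were also called in the direction of C5ar1, and Ccr1 in the other direction. Without WT stiff 1, Cx3cr1 and Ccr2 were called beside C5ar1.

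Within the 3 groups whose libraries differ in Camkk2 (WT soft, KO soft and KO stiff), 7 of 9 members were lower in library 1 than in library 2 in each group, which holds for 26.6% of genes tested. These were Cx3cr1, Ccr2, Cxcr4, C5ar1, C3ar1, Fpr1 and Fpr2. The difference was largest for Fpr1, at -1.12, -1.33 and -0.93 on the log2 scale, and for Cxcr4, at -0.86, -0.99 and -0.79, and for Ccr2 it was at most 0.20 in size. Genes listed at 0 made up between 10.75% and 13.37% of the table in libraries 1 and between 5.90% and 7.54% in libraries 2, and the part of this difference, or of Camkk2, in the receptor values was not tested.

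The other chemoattractant receptors were taken from a list of 33 genes, of which 20 were in the table and 11 were tested. With IL-4 in WT, 2 of 11 were called higher, where 1.59% of all genes tested were, Ltb4r1 (a receptor of leukotriene B4, 1.85 ± 0.36 on the log2 scale) and Ccr7 (the lymph node homing receptor, from 2.24 and 3.04 TPM to 8.74 and 9.69 TPM). Lower were S1pr1 (a sphingosine 1-phosphate receptor, -1.81 ± 0.44) and Ccrl2 (which binds chemerin, -1.57 ± 0.23), where 2.17% of all genes tested were called lower. In KO with IL-4, 1 of 11 was called higher, Ltb4r1 (2.06 ± 0.36), where 1.56% of all genes tested were. There 2 were called lower, S1pr1 (-1.72 ± 0.44) and Ccrl2 (-1.44 ± 0.23), where 2.09% of all genes tested were, while Ccr7 was at 0.76 ± 0.35 and was not called. In WT stiff, where 1.73% of all genes were called higher and 2.23% lower, Ltb4r1 (2.19 ± 0.36) and Ccr7 (1.99 ± 0.35) were called higher and Ptafr (the receptor of platelet-activating factor, -1.45 ± 0.39) lower. The 2 WT stiff libraries disagreed for Ptafr, at 33.4 and 106 TPM, beside 160 and 169 TPM in WT soft. In KO stiff 0 of 11 were called, where 0.0447% of all genes tested were called in either direction. The median log2 change with IL-4 in WT was -0.49 over the 11. Ackr3, a scavenger receptor for CXCL12, was at 9.97 TPM in WT stiff 1, at 0.374 TPM in KO soft+IL-4 1 and listed at 0 in the other 10 libraries, and was not tested.

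The ligands of the 9 receptors formed a list of 22 genes, of which 21 were in the table and 16 were tested. Of 4 related chemokines in the list (Ccl2, Ccl7, Ccl8 and Ccl12), 3 were called higher with IL-4, where Ccr2, the receptor of CCL2, was called lower. Whether mouse CCL8 acts on CCR2 was not tested. Ccl8 was called higher by 3.75 ± 0.65, Ccl7 by 2.73 ± 0.33 and Ccl2 by 1.12 ± 0.26 on the log2 scale in WT, and these were 3 of 16 called higher (1.59% of all genes tested were), with 0 lower (2.17% of all genes tested). The fourth, Ccl12, was at 1.91 and 2.63 TPM in WT soft and at 3.44 and 4.78 TPM in WT soft+IL-4 and was not called. In KO with IL-4 the same 3 were called higher (1.56% of all genes tested were) and 1 of 16 lower (2.09% were), Cxcl10 (-2.51 ± 0.60, limma adjusted p = 0.0273). With both labels averaged 2 were called lower (2.48% of all genes tested were), Cxcl10 (-2.10 ± 0.42, limma adjusted p = 0.00637) and Saa3 (-1.38 ± 0.39, adjusted p = 0.0327). Ccl2 was at 17.0 and 19.3 TPM in WT soft and at 38.8 and 42.3 TPM in WT soft+IL-4. In WT stiff the same 3 were higher (1.73% of all genes tested were called higher), Ccl8 by 3.86 ± 0.65, Ccl7 by 3.25 ± 0.33 and Ccl2 by 1.51 ± 0.26. There 2 were lower (2.23% of all genes tested were called lower), Cxcl10 (a CXCR3 ligand, -3.36 ± 0.60) and Saa3 (an FPR2 ligand, -2.41 ± 0.56). For Saa3 the WT stiff libraries disagreed, at 34.4 and 135 TPM, beside 274 and 490 TPM in WT soft. Cxcl10 was at 19.6 and 24.0 TPM in WT soft, listed at 0 and at 3.90 TPM in WT stiff and at 16.2 and 20.5 TPM in KO stiff. KO stiff was above WT stiff in Cxcl10 by 3.12 ± 0.60 and below it in Ccl7, by -1.62 ± 0.33, and Ccl2, by -1.09 ± 0.26.

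Genes that carry the signal from these receptors (G protein subunits, phosphoinositide 3-kinase, arrestins, receptor kinases, regulators of G protein signalling and Src family kinases) formed a list of 36, and 36 were tested. With IL-4 in WT, 1 of 36 was called higher and 3 lower, where 1.59% and 2.17% of all genes tested were. The median log2 change was -0.37 beside -0.05 over all genes tested. Fyn, a Src family kinase, was higher (1.12 ± 0.16), and Gng2, a G protein gamma subunit (-1.08 ± 0.17), Arrb2, an arrestin that ends receptor signalling (-1.04 ± 0.22), and Ptk2b, a calcium-responsive tyrosine kinase (-1.02 ± 0.08), were lower. In KO with IL-4, 1 was higher and 4 lower (1.56% and 2.09% of all genes tested), with Pik3cg, the catalytic subunit driven by G proteins, added at -1.09 ± 0.27. In WT stiff, 1 was higher and 3 lower, where 1.73% and 2.23% of all genes tested were. Fyn was at 1.34 ± 0.16 and Rgs2, a regulator of G protein signalling, at -1.18 ± 0.25. For Rgs2 the WT stiff libraries disagreed, at 39.3 and 79.4 TPM, beside 121 and 136 TPM in WT soft. In KO stiff 0 of 36 were called (0.0447% of all genes tested in either direction). Called higher in KO stiff than in WT stiff were 2 of 36, Rgs2 among them, where 1.37% of all genes tested were.

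The genes whose pattern over the 12 libraries was most like that of a member are given as a description, by Pearson correlation of log2(TPM + 1). The libraries share their group and their scaling, and the values carry no p. C5ar1 was closest to Lyz2 (r = 0.997), Clec4e (0.997) and Pid1 (0.997). Cx3cr1 was closest to F630028O10Rik (0.995), Hpgd (0.990) and Emb (0.989), Ccr2 to Cd14 (0.994), Smpdl3a (0.991) and Cd82 (0.991), and Cxcr3 to Aftph (0.992), Rgs3 (0.988) and Pilra (0.988). Fpr2 was closest to Plekhm3 (0.991), Gstm1 (0.986) and Evi2b (0.983), and Fpr1 to Mef2c (0.984), Tlr7 (0.978) and Slc46a3 (0.977).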

How the data were processed

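RNA of BMDM was measured in 12 libraries, 2 for each of 6 groups, by poly-A selected, strand-specific sequencing. The authors deposited 1 table of TPM values, with 14098 genes and a total of 1000000 in every library. Per the labels, reads were trimmed with Trim Galore 0.6.7 and quantified with Salmon 1.4.0 on mm10, whereas the methods of the paper describe alignment and gene counting followed by DESeq, so how TPM were made is not settled, and no counts were used here. Depth per library is unknown. Groups were taken from the labels, and 0 columns of the table were left unused.

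The 11194 genes that reached 1 TPM in 2 or more libraries were tested with limma 3.58.1 (R 4.3.3) on log2(TPM + 1), with a mean for each group, an intensity-dependent prior variance, no covariate and a pseudocount of 1. Adjustment (Benjamini-Hochberg) ran over all genes within each of 13 comparisons. Named genes are all 9 members, Camkk2, the 3 called genes with the largest log2 change in each list, and for each called member the 3 genes with the highest correlation. Ackr3 and the genes of the lists given beyond these were named after their values were seen. The members, lists, markers and tests were chosen with earlier results of these data known. List genes absent under one symbol were matched through RefSeq synonyms. Promoter windows were found for 9 of 9 members. The script was checked on simulated data. Some genes of the lists are counted but not reported here. Alternatives were median-of-ratios scaling, testing all genes with no filter, a pseudocount of 0.1, a model of only the groups compared, a block for replicate number, a call threshold of 0.1 on the adjusted p or of 2 on the log2 fold change, each library left out in turn, and leaving out the 3 libraries whose Camkk2 goes against the label.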

Additional observations from a re-analysis of the deposited data

Results flagged for a closer look

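The response of C5ar1 to stiffening differed between the libraries labelled KO and WT by a tested interaction of 1.48 ± 0.18 on the log2 scale (limma adjusted p = 0.0103), with 80.6 and 87.3 TPM in WT stiff and 217 and 249 TPM in KO stiff. The labels of KO stiff 1, KO soft 1 and WT soft 2 are those that Camkk2 goes against, and without these 3 libraries the interaction was 1.30 and was not called.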

How the results depend on the processing

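Of the 36 changes of a member called in some comparison, 0 turned direction under any alternative. They stayed called in 240 and lost the call in 48 of the recomputed values under the processing alternatives, and stayed called in 408 and lost it in 24 when 1 library was left out. Median-of-ratios scaling, a pseudocount of 0.1 and testing with no filter (scaling shifts of under 0.1 on the log2 scale) kept each count of members within 1.5 times. Requiring a log2 fold change of at least 2 left 2 members in WT soft+IL-4 against WT soft, 3 in soft+IL-4 against soft averaged over genotype labels, 0 in the averaged stiff against soft, 2 in KO stiff against KO soft+IL-4 and 0 in the stiffness interaction. With only the groups compared in the model, 1 was called in WT stiff against WT soft, 0 in KO stiff against WT stiff and 0 in the stiffness interaction, fits with fewer libraries to estimate the spread. An adjusted p under 0.1, which can add calls but lose none, gave 4 in the stiffness interaction. Without the 3 libraries whose Camkk2 goes against the label, 1 was called in WT soft+IL-4 against WT soft, 1 in WT stiff against WT soft, 1 in the averaged stiff against soft, 1 in KO stiff against KO soft+IL-4, 1 in KO stiff against WT stiff and 0 in the stiffness interaction. Leaving out 1 library in turn gave 4 to 7 in WT soft+IL-4 against WT soft, 4 to 6 in WT stiff against WT soft, 5 to 6 in KO soft+IL-4 against KO soft, 6 to 7 in the averaged IL-4 comparison, 3 to 6 in the averaged stiff comparison, 0 to 2 in WT stiff against WT soft+IL-4, 2 to 6 in KO stiff against KO soft+IL-4, 2 to 6 in KO stiff against WT stiff and 0 to 5 in the stiffness interaction, and 0 in the other 4 comparisons. A library left without a partner was assumed to vary like the other groups. The library left out was often in neither of the compared groups, where the log2 change stays the same. The counts of calls kept are therefore a weak measure of how firm a call is.

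Replicate numbers were not taken to pair the samples, since the deviations of same-numbered libraries correlated at 0.31, 0.28 and 0.31 among WT soft, KO soft and KO stiff but between -0.05 and 0.09 in all other pairs of groups. With the replicate number as a block, members called numbered 6 in WT soft+IL-4 against WT soft, 5 in WT stiff against WT soft, 6 in KO soft+IL-4 against KO soft, 6 in the averaged IL-4 comparison, 5 in the averaged stiff comparison, 6 in KO stiff against KO soft+IL-4, 5 in KO stiff against WT stiff and 1 in the stiffness interaction, all within 1.5 times of the counts without it. The member added by the block was Fpr1, in WT soft+IL-4 against WT soft, the averaged stiff comparison, KO stiff against KO soft+IL-4 and KO stiff against WT stiff.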
